A study of Mus musculus and Homo sapiens with 32 samples.

Results

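Gys1 encodes the muscle-type glycogen synthase, the enzyme that lengthens glycogen chains. It was followed here with 6 other genes of glycogen synthesis and breakdown in mouse kidneys of 2 Pcmt1 genotypes. Gys1 was selected on its measured level, which was lowest in obstructed tKO kidneys, and Gyg, Gbe1, Pygl, Pygb, Pygm and Ugp2 were chosen by their role in the same pathway. The rows were taken by gene name from the count table of the obstruction experiment, where they make up 7 of 57180 gene models. All 7 passed the filter on low counts, which left 19256 genes for testing. Comparisons that use the obstructed tKO libraries are therefore given for Gys1 as a description, with no test.

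The series measured kidney mRNA by bulk sequencing to ask what loss of PCMT1, an enzyme that repairs isoaspartyl residues in proteins, does to transcription. The obstruction experiment holds 6 groups of 3 libraries. Kidneys were Pcmt1 fl/fl (the floxed control genotype) or Pcmt1 tKO, and each genotype was studied after sham surgery with DMSO, after unilateral ureteral obstruction (UUO) with DMSO, and after UUO with LY2109761. UUO blocks the outflow of 1 kidney and is a common model of renal fibrosis, and LY2109761 inhibits the kinases of the TGF-β receptors. The labels do not spell out tKO, and the Cre driver, age and sex of the mice are not given in the sources used here. They also do not say that replicates were separate animals, and the p-values below therefore reflect library-to-library spread alone, which may be technical. The tables of HK-2 cells (379 genes) and of whole knockout kidneys (410 genes) list 0 of the 7 members and were not used.

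Library totals ran from 13015669 to 19565376 counts. Mitochondrially encoded genes took 7.43 to 18.8% of the counts in the 12 UUO libraries and 30.8 to 35.5% in fl/fl sham. In the tKO sham libraries they took 33.7, 49.7 and 69.5%. Pcmt1 itself stood at 49.3 CPM (read counts scaled to the TMM-adjusted library size) in the library labelled tKO sham replicate 1, against 42.8 to 48.9 in fl/fl sham, and at 22.7 and 24.3 in the other two tKO sham libraries. In the UUO libraries with DMSO, Pcmt1 stood at 41.4, 35.3 and 40.6 CPM in fl/fl and 26.0, 24.7 and 26.1 CPM in tKO, without overlap (log2 fold change -0.61, SE 0.23, edgeR adjusted p = 0.0818). With LY2109761 the genotypes overlapped (log2 -0.29, SE 0.23, edgeR adjusted p = 0.535), with fl/fl replicate 3 at 25.7 CPM inside the tKO range of 23.1 to 28.0 CPM. Kidney markers of the proximal tubule, loop and distal tubule, collecting duct and podocyte were detected in every group.

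Glycogen is built on a protein primer, glycogenin (Gyg), from UDP-glucose made by UDP-glucose pyrophosphorylase (Ugp2). Glycogen synthase (Gys1 in most tissues, Gys2 mainly in liver) lengthens the chains and the branching enzyme Gbe1 adds branch points. The phosphorylases, named after liver (Pygl), brain (Pygb) and muscle (Pygm), release glucose phosphate from the chain ends. Kidney tubules hold small glycogen stores, and the proximal tubule can also make glucose and release it.

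Gys1 (ENSMUSG00000003865, GRCm38 chr7:45434844-45456619, plus strand) stood far lower in obstructed tKO kidneys than in any other group. The fl/fl sham libraries had 40.9, 41.6 and 35.2 CPM and the fl/fl UUO libraries 37.4, 31.4 and 33.6 CPM. The tKO sham libraries had 51.3, 59.2 and 52.4 CPM, whereas the tKO UUO libraries had 10.9, 7.60 and 11.0 CPM. With LY2109761, obstructed fl/fl kidneys had 27.2, 30.6 and 33.4 CPM and obstructed tKO kidneys 39.2, 41.2 and 33.5 CPM. On this scale the 3 tKO UUO libraries lay below each of the other 15, and the 3 tKO sham libraries above each of the rest. Between these ends the 4 remaining groups formed a run in which each overlapped the next, from fl/fl UUO with LY2109761 through fl/fl UUO and tKO UUO with LY2109761 to fl/fl sham. The tKO UUO level rested on 176 to 267 counts a library.

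As a description, Gys1 was 3.47-fold lower in tKO than in fl/fl UUO (log2 fold change -1.79) and 5.52-fold lower in tKO UUO than in tKO sham (-2.46). It was 3.86-fold higher in tKO UUO with LY2109761 than in tKO UUO with DMSO (log2 1.95). The interactions of genotype with UUO and with LY2109761 were -2.26 and 2.11. All these values share the 3 tKO UUO libraries that chose the gene. Over 25 other settings the log2 value of tKO UUO against tKO sham ran from -2.55 to -1.41. That of tKO against fl/fl in UUO ran from -1.88 to -1.64. On the authors' per-length scale (FPKM) the group means were 1.77 ± 0.355 (SD, n = 3) in tKO UUO and 6.03 ± 0.317 in fl/fl UUO. The tKO UUO libraries, at 2.04, 1.37 and 1.91 FPKM, were again the lowest. The tKO sham libraries had 6.04, 5.48 and 2.61 FPKM and were not the highest on this scale. Those of tKO UUO with LY2109761 had 7.12, 6.74 and 5.77 FPKM.

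The comparisons that did not enter the choice of Gys1 have tests, made with the quasi-likelihood method of edgeR and Benjamini-Hochberg adjustment over all genes at a threshold of 0.05. In fl/fl kidneys, UUO against sham gave a log2 fold change of -0.20 (SE 0.15, edgeR adjusted p = 0.309), with overlapping libraries. LY2109761 against DMSO in obstructed fl/fl kidneys gave -0.17 (SE 0.15, edgeR adjusted p = 0.555). Neither passed the threshold, so in fl/fl kidneys no difference in Gys1 was detected with obstruction or with the inhibitor. In sham kidneys, tKO against fl/fl gave 0.47 (SE 0.15, edgeR adjusted p = 0.0523), just outside the threshold although the libraries did not overlap. DESeq2 gave an adjusted p of 0.0169 for the sham difference, and edgeR gave 0.51 with an adjusted p of 0.044 without tKO sham replicate 1, the library whose Pcmt1 was not reduced. With column totals as the scale the sham value was 0.18 (edgeR adjusted p = 0.714), and the mitochondrial share differs between these groups as given above. Under LY2109761, tKO against fl/fl gave 0.32 (SE 0.15, edgeR adjusted p = 0.252).

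**Figure D1:**
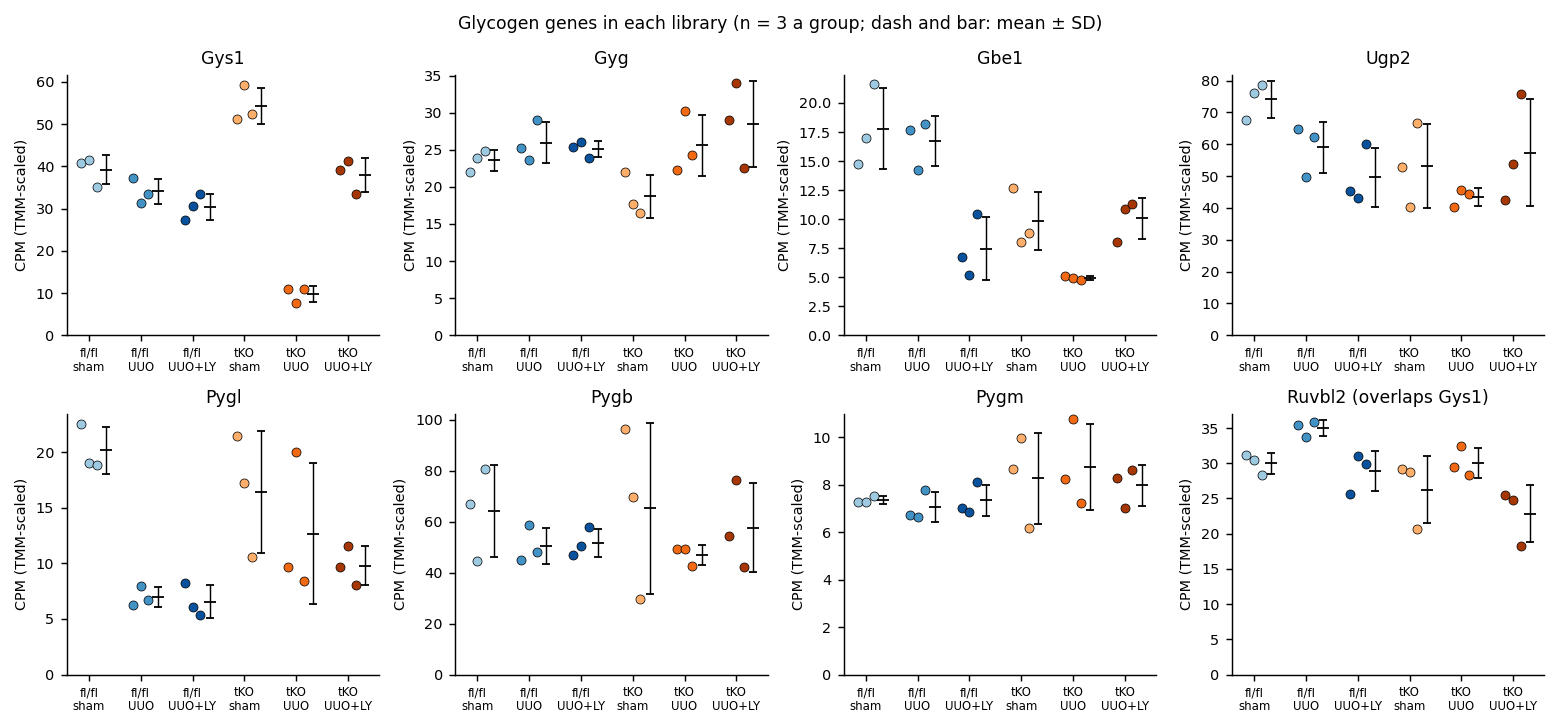
CPM of the 7 members and of Ruvbl2, which overlaps Gys1, in each of the 18 libraries by group (points) with the group mean and SD (dash and bar). Gys1 lies between 7.60 and 11.0 CPM in the 3 tKO UUO libraries and at 27.2 CPM or more in the other 15, while Ruvbl2 does not share this pattern.

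Whether overlapping gene models share the low Gys1 level was examined next. The span of Gys1 overlaps 1 gene model in the table, Ruvbl2 (GRCm38 chr7:45421760-45438096, minus strand), which encodes an AAA+ ATPase of chromatin remodelling complexes. The genes are transcribed away from each other from start sites 375 bases apart in RefSeq, and GENCODE annotates 310 exonic bases of Gys1, 6.47% of its 4789, that are also exonic in Ruvbl2. The strand setting of the authors' counting is not given in the sources used here, so reads from those bases cannot be assigned with certainty. Ruvbl2 stood at 35.4, 33.7 and 35.9 CPM in fl/fl UUO and at 29.4, 32.5 and 28.3 CPM in tKO UUO. Its change was a log2 fold change of -0.22 (SE 0.15, edgeR adjusted p = 0.339), which did not pass the threshold.

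A ratio within a library is free of any scaling between libraries. The ratio of Gys1 to Ruvbl2 counts was 0.975 ± 0.0704 (SD, n = 3) in fl/fl UUO and 0.331 ± 0.0844 in tKO UUO. It was 1.31 ± 0.061 in fl/fl sham, 2.11 ± 0.39 in tKO sham, 1.05 ± 0.0652 in fl/fl UUO with LY2109761 and 1.68 ± 0.155 in tKO UUO with LY2109761. The ratios of tKO UUO, 0.234 to 0.389, were the lowest of the 6 groups with no overlap.

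Further away, 15 gene models including Ruvbl2 lie within 50000 bases of Gys1, and 9 of them reach a mean of 1 CPM. In tKO against fl/fl UUO, 1 of these 9 was called lower and 0 higher, where 9.65% of all genes tested were called lower and 8.27% higher. Bax, a pro-apoptotic gene, had a log2 fold change of 0.31 (SE 0.14, edgeR adjusted p = 0.131), and Ftl1, the ferritin light chain, -0.08 (SE 0.30, adjusted p = 0.882). Nucb1, Snrnp70, Dhdh and Ntf5 lay between -0.14 and 0.11. The 1 call was Gm10252 (log2 -5.60, SE 1.49, edgeR adjusted p = 0.0194), an unclassified model whose span overlaps that of Ftl1 on the opposite strand. Gm10252 held 759 counts in fl/fl UUO replicate 3 and 2 to 28 in the other fl/fl and tKO UUO libraries. Without fl/fl UUO replicate 3 its value was -1.90 (edgeR adjusted p = 0.278), and the call also ended without any single tKO UUO library. Gm56125, a short miRNA model inside the span of Ftl1, held either 1 count or 3407 to 15304 counts in a library, so the division of reads between these models is uncertain. Among the other members, Pygl overlaps F730035M05Rik and Ugp2 overlaps Gm12043 and Mir1933, all with almost no counts.

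**Figure D2:**
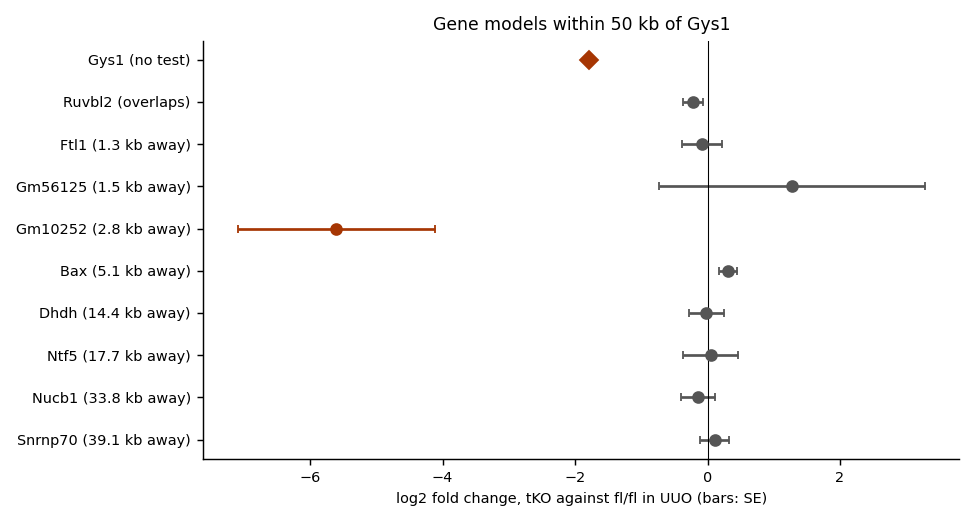
Log2 fold change of Gys1 (diamond, no test) and of the 9 gene models within 50 kb that reach 1 CPM, in tKO against fl/fl UUO, ordered by distance, with SE bars. Ruvbl2, which overlaps Gys1, sits at -0.22 and Bax at 0.31, while the wide bars of Gm56125 and Gm10252 belong to models at Ftl1 with very uneven counts.

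Gbe1 (ENSMUSG00000022707, GRCm38 chr16:70313949-70569716, plus strand) was the 1 other member called lower in obstructed tKO kidneys. The fl/fl UUO libraries had 17.7, 14.2 and 18.2 CPM and the tKO UUO libraries 5.09, 4.92 and 4.78 CPM, with no overlap. The log2 fold change was -1.76 (SE 0.26, edgeR adjusted p = 0.00123), or 3.39-fold lower, and it passed the threshold in each of 25 other settings, between -1.86 and -1.69. The tKO UUO libraries held 105 to 125 counts of Gbe1. Of the 6 members counted in this comparison, 1 was called lower and 0 higher, where 9.65% of all genes tested were called lower and 8.27% higher.

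Sequence just upstream of the start sites of Gys1 and Gbe1, the members that were both low in tKO UUO, is shown to let the promoters be compared. Each line gives 129 bases before the RefSeq start on GRCm38.p6, the longest stretch upstream of Gys1 that holds no annotated exon, read 5′ to 3′ on the plus strand. Capitals mark matches to CCAAT or to the GC box GGGCGG on either strand (reverse forms ATTGG and CCGCCC).
Gys1, chr7:45434710-45434838: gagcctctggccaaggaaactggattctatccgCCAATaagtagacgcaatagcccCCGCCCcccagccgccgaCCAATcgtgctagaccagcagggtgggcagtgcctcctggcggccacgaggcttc
Gbe1, chr16:70313820-70313948: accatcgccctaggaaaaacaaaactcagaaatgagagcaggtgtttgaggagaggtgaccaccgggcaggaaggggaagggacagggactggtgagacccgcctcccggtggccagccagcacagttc
The Gys1 window holds 2 CCAAT matches and 1 GC box match, and the Gbe1 window 0 of either. Of 32544 RefSeq windows of the same position and length, 22.2% hold a CCAAT match and 27.4% a GC box match. These are letter matches only.

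Gbe1 and Gys1 differed in their other groups. Gbe1 had 14.8, 17.01 and 21.6 CPM in fl/fl sham and 12.7, 8.0 and 8.77 CPM in tKO sham, whereas Gys1 was at its highest CPM in tKO sham. The sham difference of Gbe1 between tKO and fl/fl was -0.85 (SE 0.25, edgeR adjusted p = 0.0405), the only call among 7 members, where 5.76% of genes were called higher and 6.57% lower. The call ended in 11 of 18 fits that left out 1 library, with the highest adjusted p (edgeR, 0.164) without tKO sham replicate 2. From tKO sham to tKO UUO, Gbe1 fell with a log2 fold change of -1.0 (SE 0.26, edgeR adjusted p = 0.00561). This fall passed in 24 of 25 other settings, but the values ran from -1.13 to -0.00088. The highest edgeR adjusted p was 0.999, against 0.0387 over the fits that left out 1 library. In fl/fl kidneys obstruction left Gbe1 at -0.09 (SE 0.25, edgeR adjusted p = 0.804). The difference between these obstruction effects, the interaction of genotype and UUO, was -0.91 (SE 0.35, edgeR adjusted p = 0.295) and did not pass.

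With the inhibitor, the Gbe1 values lay in opposite directions from DMSO in the 2 genotypes. Obstructed fl/fl kidneys had 6.77, 5.15 and 10.5 CPM with LY2109761, a log2 fold change of -1.16 from DMSO (SE 0.25, edgeR adjusted p = 0.0244). Obstructed tKO kidneys had 7.99, 10.9 and 11.3 CPM, above all 3 DMSO libraries, with a log2 difference of 1.03 (SE 0.25) that did not pass (edgeR adjusted p = 0.0884, DESeq2 adjusted p = 0.00845). The interaction of genotype and LY2109761 in UUO was 2.18 (SE 0.36, edgeR adjusted p = 0.00227). It was the only call among the 6 members counted, where 7.05% of genes were called higher and 6.8% lower, and it passed in each of 25 other settings. Without fl/fl UUO LY2109761 replicate 3 the value in fl/fl was -0.95 (edgeR adjusted p = 0.126), where replicate 3 is the fl/fl library whose Pcmt1 lay in the tKO range. That call also ended without fl/fl UUO LY2109761 replicate 1 or fl/fl UUO replicate 1 (edgeR adjusted p = 0.083 and 0.0972).

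Within libraries, the ratio of Gys1 to Gbe1 FPKM was 2.44 ± 0.226 (SD, n = 3) in fl/fl UUO and 2.37 ± 0.475 in tKO UUO, so that both genes were lower in tKO UUO by a like factor. It was 2.71 ± 0.695 in fl/fl sham and 6.91 ± 2.00 in tKO sham. In UUO with LY2109761 it was 5.21 ± 1.67 in fl/fl and 4.62 ± 1.16 in tKO. Over the 18 libraries the Pearson correlation of log2 CPM between the 2 genes was 0.61, a description over libraries that share 6 group levels, which placed Gbe1 at rank 702 of the 12883 genes compared.

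**Figure D3:**
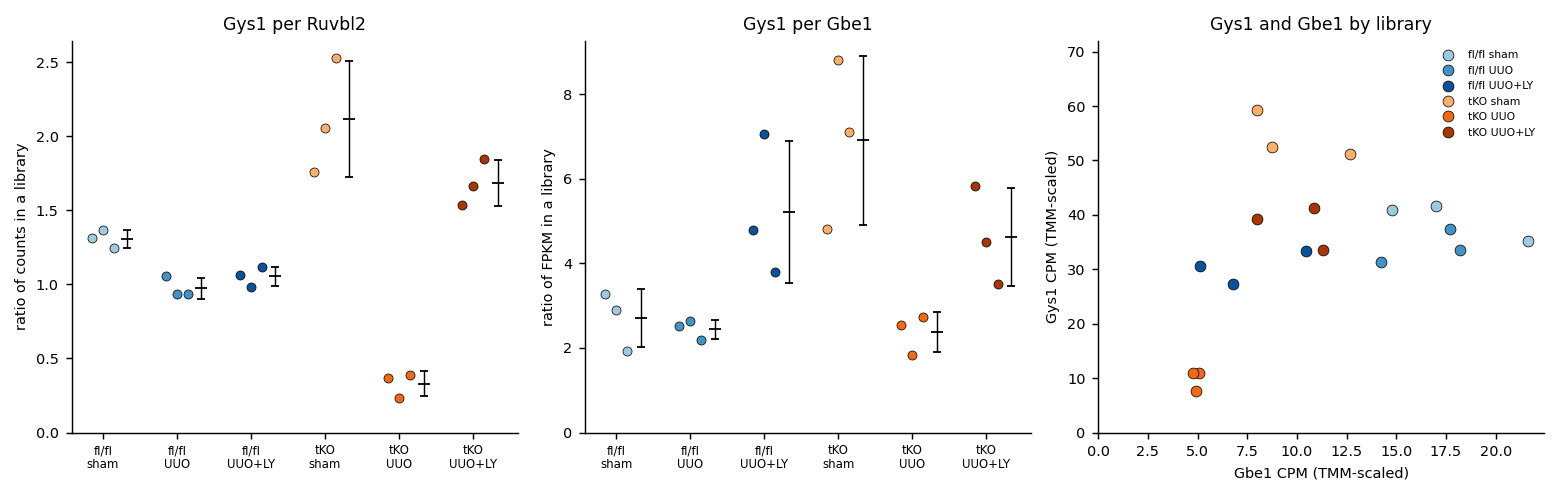
Ratio of Gys1 to Ruvbl2 counts (left) and of Gys1 to Gbe1 FPKM (middle) in each library by group, with mean and SD, and Gys1 against Gbe1 CPM by library (right). Gys1 per Ruvbl2 is lowest in tKO UUO (0.234 to 0.389), while Gys1 per Gbe1 is similar in fl/fl UUO and tKO UUO, whose points lie far apart on both axes at right.

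Gyg (ENSMUSG00000019528, GRCm38 chr3:20122084-20155317, minus strand), the primer on which Gys1 acts, did not share the low level. It had 25.2, 23.7 and 29.0 CPM in fl/fl UUO and 22.3, 30.2 and 24.3 CPM in tKO UUO, a log2 difference of -0.02 (SE 0.16, edgeR adjusted p = 0.948). The FPKM ratio of Gys1 to Gyg was accordingly 0.818 ± 0.1 (SD, n = 3) in fl/fl UUO and 0.246 ± 0.0791 in tKO UUO. From tKO sham (22.0, 17.7 and 16.5 CPM) to tKO UUO, Gyg rose by a log2 fold change of 0.45 (SE 0.17, edgeR adjusted p = 0.0426). That call ended in 9 of 18 fits without 1 library, where adjusted p reached 0.192. In fl/fl kidneys the obstruction value was 0.14 (SE 0.16, edgeR adjusted p = 0.543). Over 25 other settings that value ran from 0.057 to 0.88 and passed in 1.

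Ugp2 (ENSMUSG00000001891, GRCm38 chr11:21321138-21371201, minus strand), which supplies UDP-glucose, had 64.8, 49.9 and 62.3 CPM in fl/fl UUO and 40.3, 45.6 and 44.3 CPM in tKO UUO. These libraries did not overlap, but the log2 difference of -0.44 (SE 0.21, edgeR adjusted p = 0.155) did not pass. In sham kidneys the value was -0.48 (SE 0.21, edgeR adjusted p = 0.139), also without overlap. Ugp2 passed in none of the 9 comparisons, and its fl/fl sham libraries (67.5, 76.0 and 78.6 CPM) lay above all fl/fl UUO libraries.

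Among the phosphorylases, Pygl (ENSMUSG00000021069, GRCm38 chr12:70190811-70231488, minus strand) changed with obstruction in fl/fl kidneys. It had 22.6, 19.0 and 18.9 CPM in fl/fl sham and 6.28, 8.0 and 6.75 CPM in fl/fl UUO. Its log2 fold change was -1.52 (SE 0.31, edgeR adjusted p = 0.00112), the only call among the 7 members in this comparison, where 20.9% of genes were called higher and 18.7% lower. Over 25 other settings the Pygl value ran from -1.62 to -0.78 and passed in 24, with a highest adjusted p of 0.133 (edgeR). In tKO kidneys Pygl had 21.5, 17.2 and 10.6 CPM in sham and 9.65, 20.0 and 8.43 CPM in UUO. The tKO groups overlapped and the value was -0.38 (SE 0.31, edgeR adjusted p = 0.343), but without tKO UUO replicate 2, the library at 20.0 CPM, it was -0.87 (edgeR adjusted p = 0.0236). The interaction of genotype and UUO for Pygl was 1.14 (SE 0.43, edgeR adjusted p = 0.282).

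The direction of Pygl between genotypes in UUO was the opposite of that of Gys1 and Gbe1. All 3 tKO UUO libraries exceeded the 3 fl/fl UUO libraries, with a log2 difference of 0.86 (SE 0.31, edgeR adjusted p = 0.0665, DESeq2 adjusted p = 0.0342). It passed in edgeR without tKO UUO replicate 3 (1.08, adjusted p = 0.0435) and without tKO sham replicate 3 (0.85, adjusted p = 0.0463). Neutrophil markers, from cells known to carry Pygl, summed to 70.9 to 83.1 CPM in tKO UUO and 16.3 to 44.3 CPM in fl/fl UUO. All 3 tested of the 5 listed neutrophil markers were called higher, against 8.27% of all genes tested, and Mpo was at 0 in fl/fl UUO. In fl/fl sham the same markers summed to 1.74 to 4.26 CPM, where Pygl stood at 18.9 to 22.6 CPM. From fl/fl sham to fl/fl UUO all 3 tested markers were called higher, where 20.9% of all genes were, while Pygl gave -1.52. The part of these markers in the Pygl values was not tested.

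Pygb (ENSMUSG00000033059, GRCm38 chr2:150786735-150831758, plus strand) and Pygm (ENSMUSG00000032648, GRCm38 chr19:6384399-6398459, plus strand) passed the threshold in none of the 9 comparisons. Pygb ranged from 42.5 to 49.3 CPM in tKO UUO and from 45.0 to 58.5 CPM in fl/fl UUO (log2 -0.11, SE 0.32, edgeR adjusted p = 0.852). It was least even in tKO sham, with 96.4, 69.6 and 29.7 CPM, where the lowest library has the highest mitochondrial share. Pygm ranged from 7.24 to 10.8 CPM in tKO UUO and from 6.64 to 7.77 CPM in fl/fl UUO (log2 0.31, SE 0.19, edgeR adjusted p = 0.266). Skeletal muscle markers, checked because Gys1 and Pygm are named after muscle, summed to 0.129 to 4.08 CPM over all 6 markers and all 18 libraries, with Myh4 at 0 in each library of 4 groups.

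On the per-length scale Pygb made up most of the phosphorylase RNA. Its share of the summed FPKM of the 3 genes was 72.6% ± 5.70 (SD, n = 3) in fl/fl sham and 78.7% ± 2.01 in fl/fl UUO, and 73.2% ± 6.31 and 71.0% ± 5.72 in tKO sham and tKO UUO. The Pygl share was 16.7% ± 3.57 in fl/fl sham and 7.68% ± 0.084 in fl/fl UUO. In tKO it was 14.0% ± 2.32 in sham and 12.99% ± 4.65 in UUO. Pygm held the rest, with group means from 10.7 to 16.0%.

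**Figure D4:**
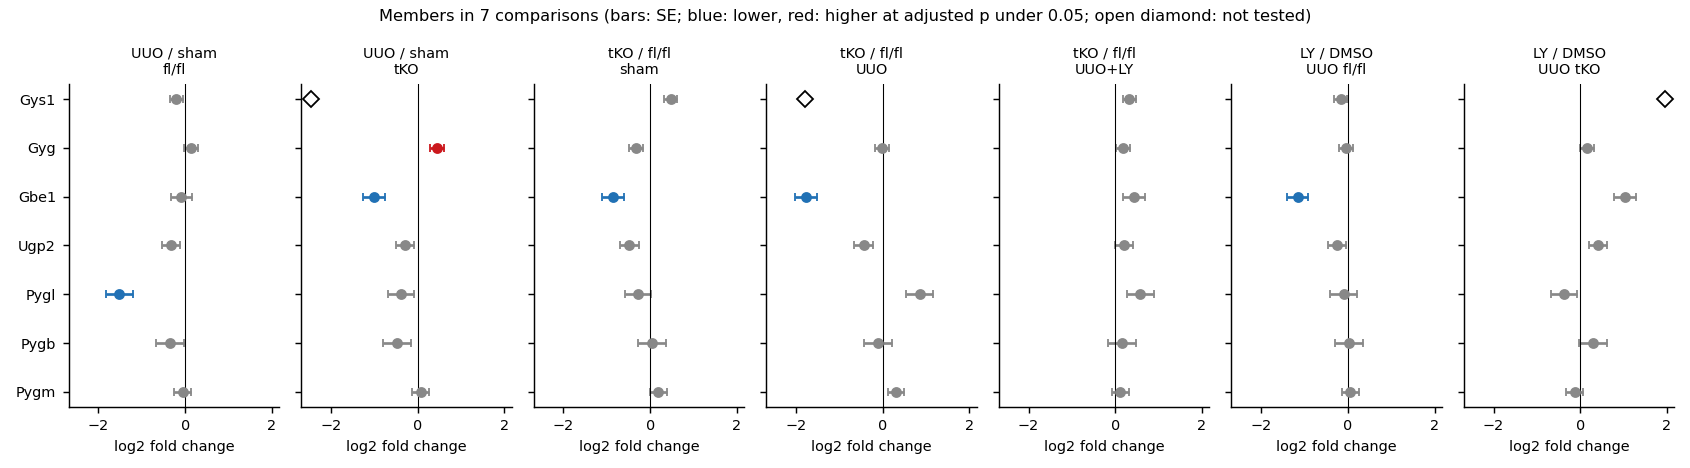
Log2 fold change of each member in the 7 comparisons between a pair of groups, with SE bars, coloured where the edgeR adjusted p is under 0.05. Gys1 has open diamonds and no test where the tKO UUO libraries are used, Gbe1 is lower in 4 panels, and Pygl is lower in fl/fl UUO alone of the panels tested, which is no test of a difference between panels.

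Counted by comparison, at most 2 members passed in any. The median log2 fold change of the members was -0.20 for UUO in fl/fl, -0.28 for genotype in sham and -0.06 for genotype in UUO (Gys1 not counted), against 0.02, 0.03 and 0.05 over all genes tested. Obstruction in tKO kidneys gave 1 higher (Gyg) and 1 lower (Gbe1) of 6 counted, where 21.6% of genes were called higher and 19.4% lower. With column totals as the scale, the calls over all genes in UUO against sham turned to 8547 higher and 906 lower in fl/fl, against 4031 and 3594 with TMM, and to 11686 and 715 in tKO, against 4168 and 3729. LY2109761 against DMSO gave 1 lower of 7 (Gbe1) in fl/fl, where 2.52% were called higher and 2.62% lower. In tKO it gave 0 of 6, where 0.0831% were called higher and 0.0883% lower. Under LY2109761, tKO against fl/fl gave 0 of 7, where 0.888% were called higher and 2.09% lower. The interaction of genotype and UUO gave 0 of 6, where 0.0104% were called higher and 0.0312% lower. For these last 3 comparisons edgeR gave 1 (Gbe1), 1 (Gys1) and 2 (Gbe1 and Pygl) members at an unadjusted p under 0.05. DESeq2 called 1, 0 and 0 of them past the adjusted threshold. Over all genes it called 904 of 16598, 1477 of 17344 and 412 of 17716 in these comparisons.

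In the same obstructed libraries, cell markers moved with genotype. The 5 proximal tubule markers summed to 1508 to 2460 CPM in fl/fl UUO and 718 to 906 CPM in tKO UUO, and 4 of the 5 were called lower. Over all genes tested, 9.65% were called lower and 8.27% higher. Macrophage markers summed to 518 to 587 and 625 to 1356 CPM (2 of 5 called higher), fibroblast markers to 507 to 611 and 899 to 1341 CPM (1 of 4 called higher). Loop and distal tubule markers summed to 977 to 1392 and 953 to 1257 CPM (0 of 3 called). In sham kidneys the proximal tubule sum was 4414 to 7762 CPM in fl/fl and 4718 to 6290 CPM in tKO. UUO against sham called all 5 of these markers lower in each genotype, where 18.7% (fl/fl) and 19.4% (tKO) of all genes were. That comparison gave log2 -0.20 for Gys1 and -0.09 for Gbe1 in fl/fl, neither called. In tKO it gave -2.46 for Gys1, with no test, and -1.0 for Gbe1, called lower. The part of the cell markers in the Gys1 and Gbe1 values was not tested, and in bulk tissue fewer cells of a type and less RNA per cell cannot be told apart. With LY2109761 the proximal tubule sum was 1142 to 1502 CPM in fl/fl UUO, lower in each library than with DMSO, with Gys1 at 27.2 to 33.4 CPM. In tKO UUO with LY2109761 it was 1159 to 1657 CPM, higher in each library than with DMSO, where Gys1 stood at 33.5 to 41.2 CPM. Of the 5 proximal tubule markers, LY2109761 against DMSO called 1 lower in fl/fl and 1 higher in tKO. Over all genes, 2.62% were called lower in fl/fl and 0.0831% higher in tKO.

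Other genes of glycogen metabolism were counted in 2 lists. The list of glycogen machinery holds 22 genes for the liver-type synthase, lysosomal breakdown, phosphorylase kinase, phosphatase targeting and kinases, of which 20 were tested (Ppp1r3a and Ppp1r3g were too low). In tKO against fl/fl UUO, 2 were higher and 1 lower. Over all genes tested, 8.27% were called higher and 9.65% lower. Phka2 and Phkg2, subunits of the kinase that activates phosphorylase, rose by log2 0.87 (SE 0.17) and 0.70 (SE 0.19), with edgeR adjusted p of 0.00549 and 0.0195. Ppp1ca, a catalytic subunit of protein phosphatase 1, fell by 0.85 (SE 0.28, edgeR adjusted p = 0.0432). Leaving out 1 library ended the calls of Phkg2 and Ppp1ca in 3 and 10 of 18 fits, that of Phkg2 without fl/fl UUO replicate 1 or 3 or tKO UUO replicate 3. The list's median log2 fold change was -0.024, against 0.05 over all genes tested. Gys2, the liver-type synthase, gave -0.72 (SE 0.30, edgeR adjusted p = 0.114), at 2.89 to 4.47 CPM in fl/fl UUO and 1.59 to 2.68 CPM in tKO UUO.

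The list of glucose phosphate and UDP-glucose supply holds 16 genes, all tested. In tKO against fl/fl UUO, 1 was higher and 4 lower, where 8.27% of all genes tested were called higher and 9.65% lower. Slc37a4, the transporter that carries glucose phosphate into the endoplasmic reticulum, fell by 1.56 (SE 0.20, edgeR adjusted p = 0.00071), from 55.7 to 88.8 CPM to 21.8 to 27.0 CPM. G6pc, the phosphatase that frees glucose there, fell by 2.24 (SE 0.46, edgeR adjusted p = 0.00615), from 24.4 to 72.6 CPM to 8.43 to 11.4 CPM. Pgm1, a phosphoglucomutase that joins glycogen to glycolysis, fell by 0.84 (SE 0.16, edgeR adjusted p = 0.00433), and the sodium-glucose transporter Slc5a1 by 0.98 (SE 0.22, edgeR adjusted p = 0.00845). Hk3, a hexokinase of myeloid cells, was the gene that rose and is not among the 4 with the smallest p. The list's median was -0.083, against 0.05 over all genes. Slc37a4 and G6pc are known from the proximal tubule, whose markers were lower in the same libraries as given above, and the part of that in these values was not tested.

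**Figure D5:**
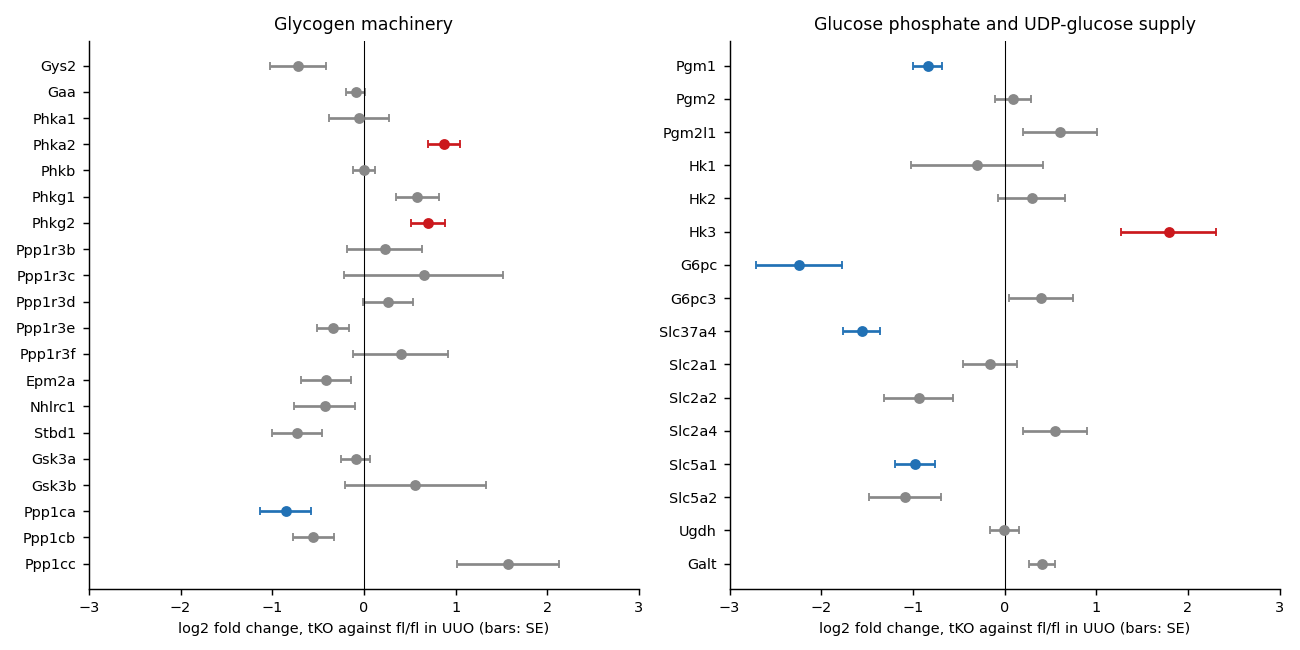
Log2 fold change of the 20 tested genes of glycogen machinery (left) and the 16 of glucose phosphate and UDP-glucose supply (right) in tKO against fl/fl UUO, with SE bars, coloured where the edgeR adjusted p is under 0.05. At left 2 genes are higher and 1 lower, at right 1 is higher and 4 lower, with G6pc at -2.24 the lowest. Over all genes tested, 8.27% were called higher and 9.65% lower.

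The response to the inhibitor was counted by genotype in the same lists. In obstructed fl/fl kidneys with LY2109761, edgeR called 0 of 20 machinery genes (6 at an unadjusted p under 0.05, and 2 past the adjusted threshold with DESeq2). Of 16 supply genes 2 were called, Slc37a4 lower by 0.75 (SE 0.20, edgeR adjusted p = 0.0398) and G6pc lower by 1.69 (SE 0.46, edgeR adjusted p = 0.045). Leaving out 1 library ended these calls in 8 and 11 of 18 fits. Over all genes tested, edgeR called 2.52% higher and 2.62% lower in this comparison. DESeq2 called 979 higher and 1066 lower of 18836 genes there. In tKO no gene of either list passed with edgeR, where 5 machinery and 4 supply genes had an unadjusted p under 0.05 and DESeq2 called 1 and 3. There edgeR called 0.0831% of all genes higher and 0.0883% lower, whereas DESeq2 called 427 higher and 477 lower of 16598 genes. The interaction called Slc37a4 (log2 1.68, SE 0.28, edgeR adjusted p = 0.00243), G6pc (3.09, SE 0.64, adjusted p = 0.00749) and Pgm1 (0.87, adjusted p = 0.0217) higher. It called Phka2 (-0.92, edgeR adjusted p = 0.0245) and Ppp1cc (-3.40, adjusted p = 0.0128) lower. Leaving out 1 library ended the calls of Phka2 and Pgm1 in 5 and 4 of 18 fits. Over all genes the interaction called 7.05% higher and 6.8% lower. Under LY2109761 the 1 list call between genotypes was Ppp1r3c, a glycogen-targeting subunit (log2 3.34, edgeR adjusted p = 0.0497), and 0 supply genes passed (0 at an unadjusted p under 0.05 with edgeR, and 0 with DESeq2). Ppp1r3c ranged from 1.13 to 19.5 CPM over its 3 tKO libraries, and without tKO UUO LY2109761 replicate 2 the value was 0.83 (edgeR adjusted p = 0.415). Its call ended in 16 of 18 such fits. Between genotypes under LY2109761, 0.888% of all genes were called higher and 2.09% lower.

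In sham kidneys, where 5.76% of all genes were called higher and 6.57% lower, 3 of 20 machinery genes were higher in tKO (Ppp1r3d, Phka2 and Phkg2) and 1 lower (Ppp1ca), and of the supply genes 1 was higher (Galt) and 3 lower (Pgm1, Slc5a1 and Slc37a4). Ppp1r3d rose by log2 2.10 (edgeR adjusted p = 0.00483) and Pgm1 fell by 0.72 (edgeR adjusted p = 0.0137). Leaving out 1 library ended the sham calls of Ppp1ca, Galt, Slc5a1 and Slc37a4 in 4 of 18 fits each, that of Phkg2 in 3 and that of Pgm1 in 1. For obstruction in fl/fl kidneys, where 20.9% of all genes were called higher and 18.7% lower, 3 of 20 machinery genes were higher and 3 lower, and 3 of 16 supply genes higher and 6 lower. Ppp1r3d, a phosphatase targeting subunit, rose by log2 3.25 (SE 0.34, edgeR adjusted p = 2.78e-06) and the hexokinase Hk2 by 4.14 (SE 0.44, adjusted p = 3.75e-06). Phkb, the regulatory beta subunit of phosphorylase kinase, fell by 1.12 (SE 0.12, edgeR adjusted p = 3.75e-06). Gys2 fell by 1.74 (SE 0.30, edgeR adjusted p = 0.00029), and Slc2a4, the insulin-responsive glucose transporter, by 2.84 (SE 0.37, adjusted p = 2.18e-05). In tKO kidneys, where 21.6% of all genes were called higher and 19.4% lower, 2 machinery genes were higher and 6 lower, and 3 supply genes higher and 7 lower. Gys2 was lower by 2.28 (SE 0.31, edgeR adjusted p = 3.7e-05) and G6pc by 3.54 (SE 0.49, adjusted p = 3.82e-05). The interaction of genotype and UUO called 0 genes in either list with edgeR, where 2 machinery and 2 supply genes had an unadjusted p under 0.05 and DESeq2 called 1 and 0. For this interaction edgeR called 0.0104% of all genes higher and 0.0312% lower, whereas DESeq2 called 217 higher and 195 lower of 17716 genes.

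The genes whose pattern over the 18 libraries was most like that of Gys1, among 12883 genes with a mean of at least 5 CPM, were Adcy1 (Pearson r of log2 CPM 0.93), Tom1l1 (0.87), Lig3 (0.84), Ide (0.83) and Rbpms2 (0.82). Adcy1, an adenylyl cyclase, had group means of 10.7 CPM in fl/fl sham, 11.7 in fl/fl UUO and 14.4 in tKO sham, and of 5.54 in tKO UUO and 11.9 in tKO UUO with LY2109761. Lig3, a DNA ligase, had 31.0, 35.5, 42.6, 18.3 and 36.6 CPM in the same groups. The other members were less alike, with r of 0.41 for Ugp2, 0.27 for Pygb, 0.09 for Pygl, -0.30 for Pygm and -0.34 for Gyg. Few genes followed Gys1 closely, 9 with an r of at least 0.8, whereas Gbe1 had 418, Ugp2 73, Pygl 31, Pygb 21, Gyg 10 and Pygm 1.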

How the data were processed

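Kidney mRNA was sequenced in bulk in 18 libraries. The deposited table holds counts per gene model and FPKM for each library, made by the authors with fastp, HISAT2 and StringTie, per the submitters' processing notes, which give no versions and name hg38/GRCh38 beside GRCm38/mm10 as builds. The counter, strand setting and annotation version are not given in the sources used here. Deposited FPKM values were used for ratios and shares within a library and to describe the Gys1 level in some groups. The deposited counts were tested with edgeR 4.0.16 (limma 3.58.1, R 4.3.3) in 1 quasi-likelihood model of the 6 groups, with TMM scaling, the filterByExpr filter (19256 genes left) and Benjamini-Hochberg adjustment. DESeq2 1.42.0 was an alternative, with other scalings, no filter, a replicate block, only the groups compared, and each library left out. The code was tested on simulated data. The table's own gene positions do not match GRCm38 (10.6% of 51884 shared gene IDs overlap their GENCODE M21 span), so printed positions come from GENCODE M21 by Ensembl ID, and the table's positions served only to find overlapping models. Promoters come from RefSeq on GRCm38.p6. Genes named were the members, Pcmt1, gene models that overlap a member or lie within 50000 bases of Gys1 (values from a mean of 1 CPM), and the 5 genes most like Gys1. Genes of the pathway lists were named if called and among the 4 smallest p-values of their list in a comparison, and Gys2 and Hk3 were added after their values were seen. Some genes of these lists are not reported here. The members and lists were chosen with earlier results of these data known.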

Additional observations from a re-analysis of the deposited data

Results flagged for a closer look

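The effect of LY2109761 on Gbe1 in obstructed kidneys differed between the genotypes by a test of that difference. Gbe1 went from 17.7, 14.2 and 18.2 CPM with DMSO to 6.77, 5.15 and 10.5 CPM with LY2109761 in fl/fl, a log2 fold change of -1.16 (SE 0.25). In tKO it went from 5.09, 4.92 and 4.78 CPM to 7.99, 10.9 and 11.3 CPM, a value of 1.03 (SE 0.25). The interaction was 2.18 (SE 0.36, edgeR adjusted p = 0.00227), and it lay between 1.98 and 2.55 over 25 other settings, with a highest adjusted p of 0.0424 (edgeR or DESeq2). In each library of fl/fl the inhibitor values lay below the DMSO values, and in each library of tKO above them. The summed proximal tubule markers lay in the same directions without overlap, from 1508 to 2460 CPM with DMSO to 1142 to 1502 CPM with LY2109761 in fl/fl and from 718 to 906 CPM to 1159 to 1657 CPM in tKO. The fl/fl ranges nearly met, and of these 5 markers LY2109761 against DMSO called 1 lower in fl/fl and 1 higher in tKO. Over all genes, 2.62% were called lower in fl/fl and 0.0831% higher in tKO. For the interaction 3 of the 5 markers were called higher and 0 lower, and their part in the Gbe1 result was not tested. Over all genes, 7.05% and 6.8% were called higher and lower for this interaction.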

How the results depend on the processing

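The number of members called in UUO against sham in tKO was 1 with TMM without mitochondrial genes, with the replicate block and with only the groups compared, and 1 to 2 without 1 library. For tKO against fl/fl in sham it was 2 with RLE size factors and DESeq2 and 0 with column totals, no filter or only the groups compared, and 0 to 2 without 1 library. In UUO it was 2 with DESeq2 and 1 to 2 without 1 library. For LY2109761 in fl/fl it was 0 with column totals or only the groups compared, and 0 to 1 without 1 library, and in tKO 1 with DESeq2 and 0 to 1 without 1 library. Over all genes, the settings named first called 7907, 7575 and 5819 for UUO in tKO (7897 as reported). For genotype in sham the calls were 2408 (RLE), 3331 (DESeq2), 292 (column totals), 1529 (no filter) and 6 (only the groups compared), against 2375. DESeq2 called 4396 for genotype in UUO, against 3451, and 904 for LY2109761 in tKO, against 33. For LY2109761 in fl/fl, column totals called 25 and only the groups compared 54, against 991.

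Column totals moved the median of all genes to 0.76 for UUO in fl/fl, 1.06 for UUO in tKO and -0.25 for genotype in sham, and the cause was not tested. They turned the UUO values in fl/fl to 0.54 (Gys1), 0.64 (Gbe1), 0.39 (Pygb), 0.68 (Pygm) and 0.41 (Ugp2), and in tKO to 0.56 (Pygl), 0.40 (Pygb), 0.83 (Ugp2), 0.11 (Phkb) and 0.029 (Galt). Other reversals with column totals were Pygb -0.090 and Pygm -0.053 (genotype, sham), Gyg 0.0058 (genotype, UUO), Pygb -0.047 and Pygm -0.013 (LY2109761, fl/fl) and Pygb 0.011 (genotype by UUO). With no filter Pygb was -0.0055 in sham and -0.0040 for LY2109761 in fl/fl. Over all genes the column-total calls in sham were 70 higher and 222 lower, against 1109 and 1266. For genotype with LY2109761, 47.8% of 23 calls were higher with column totals, against 29.8% of 573.

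Without 1 library, signs turned within these ranges. For UUO, Gbe1 in fl/fl ran from -0.21 to 0.076 and Pygm in tKO from -0.10 to 0.22. For genotype, Pygb ran from -0.36 to 0.38 in sham, from -0.18 to 0.013 in UUO and from -0.097 to 0.34 with LY2109761, Gyg from -0.16 to 0.072 in UUO, and Ugp2 from -0.042 to 0.38 with LY2109761. For LY2109761 in fl/fl, Gyg ran from -0.11 to 0.036, Pygl from -0.29 to 0.033, Pygb from -0.061 to 0.15 and Pygm from -0.020 to 0.13. In tKO, Gyg ran from -0.0019 to 0.30, Pygl from -0.60 to 0.11 and Pygm from -0.25 to 0.042. For genotype by UUO, Pygb ran from -0.48 to 0.25, Pygm from -0.047 to 0.28 and Ugp2 from -0.13 to 0.23, and for genotype by LY2109761 Pygl from -0.50 to 0.21.

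The labels do not say whether replicate numbers pair the libraries, and the correlations below cannot settle it. Of 40 same-numbered pairs 2 had a correlation over 0.1 (range -0.13 to 0.15), and 9 of 18 libraries correlated best with a same-numbered one. With the replicate block Pygb was -0.036 in sham, and for LY2109761 in fl/fl Gyg was 0.017, Pygl 0.15 and Pygb -0.0024.

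Counts of calls over all genes ranged over the settings from 6350 to 9453 (UUO in fl/fl, 7625 as reported), 5819 to 12401 (UUO in tKO, 7897), 6 to 4235 (genotype in sham, 2375), 682 to 4396 (genotype in UUO, 3451), 14 to 1477 (genotype with LY2109761, 573), 2 to 2045 (LY2109761 in fl/fl, 991), 2 to 904 (LY2109761 in tKO, 33), 0 to 412 (genotype by UUO, 8) and 289 to 3556 (genotype by LY2109761, 2666). Depth limits Pygm and Gbe1 most in tKO sham, where they held 31 to 116 and 44 to 170 counts a library.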
